A study of Homo sapiens with 3 samples.

Results

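The genes UPF1, UPF2, UPF3A, UPF3B, SMG1, SMG5, SMG6, SMG8 and SMG9 encode core factors of nonsense-mediated mRNA decay (NMD), and the MATR3 clusters named for them are described here. The members were the 449 clusters whose deposited gene name was one of these 9 symbols, out of 388807 clusters in all. They numbered 147 of 133088 in replicate 1, 168 of 131679 in replicate 2 and 134 of 124040 in replicate 3. The data are PAR-CLIP libraries, in which a photoreactive uridine analogue is crosslinked to the protein bound to it and is read as a T-to-C change in the cDNA. A cluster is a group of overlapping reads with such changes. The pull-down used an antibody against MATR3 (matrin 3, a nuclear RNA-binding protein). The 3 biological replicates come from HEK293, an established human embryonic kidney line, of wild-type genotype, with no treatment beyond PAR-CLIP labelling and crosslinking. They form 1 group with no control library, so the comparisons are between genes within a replicate. RNA levels are not measured by these tables, so the cell type was not checked against markers, and more copies of a transcript cannot be told apart from more binding per copy.

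NMD removes transcripts on which a ribosome stops too early. UPF1 is an RNA helicase that assembles on such transcripts, and UPF2 links it to UPF3A or UPF3B, the paralogues that contact the exon junction complex. The kinase SMG1, held in a complex with its regulatory subunits SMG8 and SMG9, phosphorylates UPF1. Phosphorylated UPF1 then binds SMG5, an adaptor that leads to deadenylation and decapping, or SMG6, an endonuclease that cuts the transcript near the stop codon. Several of these factors are known to be regulated by NMD through their own mRNAs. MATR3 is known to bind pyrimidine-rich RNA, largely in introns.

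The 3 libraries held 1649124, 1506682 and 1532602 reads in clusters, with a median of 9, 8 and 9 reads and of 3 distinct reads per cluster in each. Every listed cluster has at least 4 reads and at least 2 conversion locations, so binding below these limits was not detectable. Reads can be copies of 1 molecule, since no molecular identifiers are given. All 449 member cluster sequences equalled hg38 at the deposited coordinates, and each occurred at exactly 1 place in the main chromosomes.

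Overlapping clusters of a gene were merged across replicates into 386 sites. Of these, 339 sites were seen in 1 replicate, 38 in 2 and 9 in all 3. Clusters of other genes were not merged into sites, so these counts have no share over all genes beside them. The comparison with other genes is given below for single clusters. The 9 were all intronic. They were 3 in SMG9, 2 in SMG6, 2 in UPF2, 1 in SMG5 and 1 in UPF1, and UPF3A, UPF3B, SMG1 and SMG8 had none. In 7 of the 9, some bases were covered by a cluster of every replicate. Those 7, the sites with the firmest recurrence, are given here 5′ to 3′ on the transcript strand, in hg38, with the bases covered in every replicate in capitals. The UPF1 site of 374 nt is cut to the capitals with up to 100 nt to each side.
SMG5 intron 16 at chr1:156256061-156256274, minus strand: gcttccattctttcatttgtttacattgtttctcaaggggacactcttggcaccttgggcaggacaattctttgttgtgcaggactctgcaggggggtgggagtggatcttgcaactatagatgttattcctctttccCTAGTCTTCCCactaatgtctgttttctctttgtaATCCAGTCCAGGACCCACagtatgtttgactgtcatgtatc
SMG6 intron 12 at chr17:2178250-2178336, minus strand: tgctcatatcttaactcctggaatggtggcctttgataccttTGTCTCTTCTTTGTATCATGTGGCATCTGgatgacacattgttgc
SMG9 intron 7 at chr19:43739460-43739644, minus strand: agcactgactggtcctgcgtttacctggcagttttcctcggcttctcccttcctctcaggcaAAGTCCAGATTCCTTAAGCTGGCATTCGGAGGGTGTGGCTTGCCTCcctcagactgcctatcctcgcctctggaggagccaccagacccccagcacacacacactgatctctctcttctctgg
SMG9 intron 7 at chr19:43739876-43739960, minus strand: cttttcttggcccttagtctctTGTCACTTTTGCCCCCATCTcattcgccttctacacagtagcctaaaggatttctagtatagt
UPF1 intron 1 at chr19:18840234-18840465, plus strand: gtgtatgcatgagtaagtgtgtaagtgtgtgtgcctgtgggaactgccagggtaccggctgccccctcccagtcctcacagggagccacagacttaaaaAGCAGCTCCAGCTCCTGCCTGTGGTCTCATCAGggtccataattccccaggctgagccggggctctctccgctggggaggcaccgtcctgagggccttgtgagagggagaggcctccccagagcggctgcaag
UPF2 intron 21 at chr10:11925694-11925831, minus strand: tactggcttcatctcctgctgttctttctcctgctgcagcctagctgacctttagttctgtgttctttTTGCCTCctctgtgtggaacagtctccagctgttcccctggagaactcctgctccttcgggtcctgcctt
UPF2 intron 8 at chr10:11995267-11995367, minus strand: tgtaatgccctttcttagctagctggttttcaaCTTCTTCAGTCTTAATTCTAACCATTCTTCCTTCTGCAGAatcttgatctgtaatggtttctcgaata

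Of the capital letters, C and T made up between 52.2% in the first SMG9 site and 85.7% in the first UPF2 site. The first UPF2 site and the second SMG9 site had capitals of only 7 nt and 20 nt, against 46 nt in the first SMG9 site. The DNA letters ATCTT, the motif known for MATR3 as AUCUU, were searched on the transcript strand only. They stood once each in the printed SMG5 and SMG6 sequences and in the second UPF2 sequence, in lower case each time. Of the 24977 gene-annotated clusters between 85 nt and 232 nt long, the range of the printed lengths, 20.3% held these letters. Those are clusters of single replicates, not matched in length within that range. The printed sequences are sites merged over replicates or cut, so the share is not a like-for-like background for them. The UPF1 site had 17 reads in replicate 1, 138 reads in replicate 2 and 11 reads in replicate 3. Replicate 2 thus held most of its reads. The first SMG9 site was alike, with 15, 62 and 20 reads, and the SMG5 site had 46, 73 and 21 reads. The SMG6 site in intron 12 was shallow, with 10, 6 and 19 reads. The other SMG6 site, in intron 6 at chr17:2292205-2292297, had 6, 6 and 5 reads, and its clusters were joined in a chain with no base common to all 3 replicates. The SMG9 site in intron 2 at chr19:43749735-43749856, with 31, 7 and 13 reads, was a chain of the same kind. The number of sites in all 3 replicates was 5 when only clusters with at least the median read count were used, and 2 when clusters had to overlap by 50% of both.

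Clusters were present in all 3 replicates for 8 of the 9 genes. Over all protein-coding genes of the annotation, 40.7% had clusters in all 3. That share depends on length, and among genes with a span within 10% of that of SMG6 it was 61.3%. SMG8 was the exception, with no cluster in replicate 1 and 1 in each of the others.

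The gene with most clusters was SMG6 (ENSG00000070366, chromosome 17, 2059839 to 2303785, minus strand, hg38), the longest of the 9 with a span of 243947 nt and 18 introns. It had 48, 48 and 36 clusters with 492, 415 and 359 reads in replicates 1, 2 and 3. The replicate 3 count was the low one. Expressed per 1000000 reads in gene-annotated clusters, its normalised reads were 305 ± 38.3 (SD, n = 3).

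SMG5 (ENSG00000198952, chromosome 1, 156249224 to 156282825, minus strand) is the adaptor for phosphorylated UPF1. It had 30, 28 and 28 clusters in a span of 33602 nt. Its reads numbered 501, 490 and 390, or 334 normalised reads ± 42.3 (SD, n = 3). In every replicate this gene had fewer clusters than SMG6 and more normalised reads, with 346, 369 and 287 against 340, 312 and 264. The gap in reads was smaller than the spread of either gene between replicates.

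The helicase gene UPF1 (ENSG00000005007, chromosome 19, 18831959 to 18868230, plus strand) had 20, 21 and 21 clusters with 356, 366 and 281 reads. That was 243 normalised reads ± 34.5 in a span of 36272 nt (SD, n = 3). Its cluster counts varied little, with a mean of 20.7 and an SD of 0.577 (n = 3).

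SMG9 (ENSG00000105771, chromosome 19, 43727983 to 43754962, minus strand), a subunit of the SMG1 complex, had 23, 24 and 21 clusters. Its reads numbered 292, 338 and 239, or 211 normalised reads ± 40.1 in a span of 26980 nt (SD, n = 3). UPF1 was above SMG9 in normalised reads within every replicate, with 246, 276 and 207 against 202, 254 and 176, but the ranges of the genes overlapped.

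The adaptor gene UPF2 (ENSG00000151461, chromosome 10, 11920022 to 12043170, minus strand) varied most between the replicates among the better covered members. It had 14 clusters in replicate 1, 27 in replicate 2 and 13 in replicate 3, with 145, 308 and 140 reads. The mean was 145 normalised reads ± 75.3 (SD, n = 3), and replicate 2 stood above the other replicates although it had no more clusters overall than replicate 1.

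The remaining members had few clusters. SMG1 (ENSG00000157106, chromosome 16, 18804860 to 18926408, minus strand), the kinase gene, had 5, 10 and 5 clusters with 40, 90 and 52 reads. UPF3A (ENSG00000169062, chromosome 13, 114281601 to 114305817, plus strand) had 5, 6 and 8 clusters with 47, 52 and 63 reads. Its paralogue UPF3B (ENSG00000125351, chromosome X, 119834022 to 119852998, minus strand) had 2, 3 and 1 clusters with 18, 45 and 10 reads. UPF3A was above its paralogue in normalised reads within every replicate, with 32.5, 39.2 and 46.4 against 12.4, 33.9 and 7.36. The ranges overlapped, since UPF3B in replicate 2 lay above UPF3A in replicate 1. SMG8 (ENSG00000167447, chromosome 17, 59209400 to 59215239, plus strand), with a span of only 5840 nt, had 1 cluster of 16 reads in replicate 2 and 1 of 10 reads in replicate 3. Both lay in coding sequence of exon 1, at 59210489 to 59210557 and at 59211337 to 59211381.

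**Figure D1:**
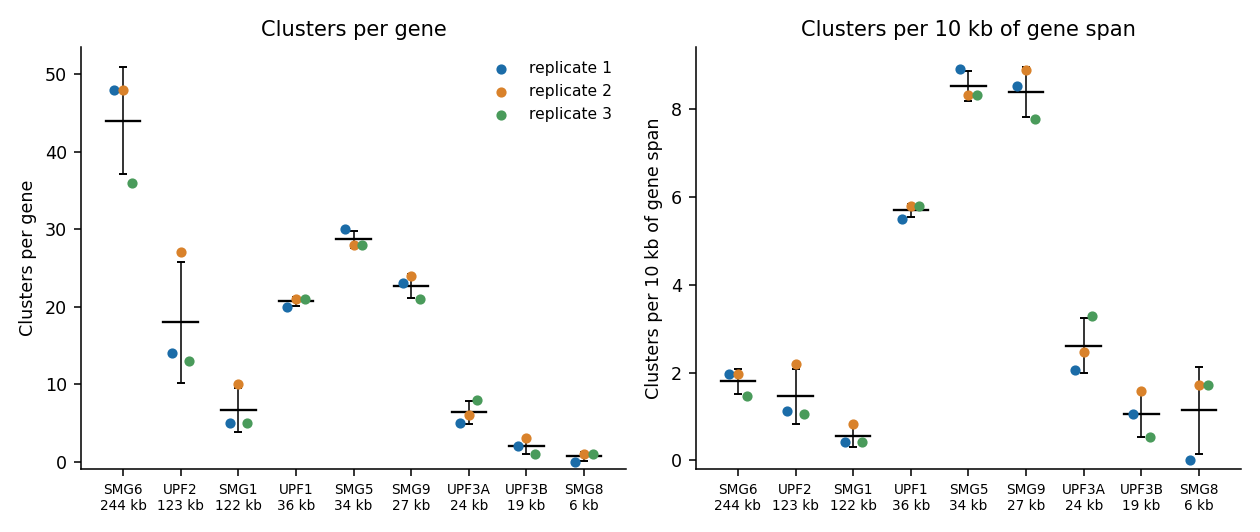
Clusters per gene (left) and clusters per 10 kb of gene span (right) for the 9 NMD factor genes, ordered from the longest span to the shortest. Points are replicates, horizontal lines are means and bars are SDs (n = 3). SMG6 has the most clusters at 44 on average, while SMG5 and SMG9 have the highest density at 8.53 and 8.40 clusters per 10 kb.

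Set against its length, SMG6 was not the most densely covered gene. It had 1.80 clusters per 10 kb of span ± 0.28 (SD, n = 3). SMG5 had 8.53 ± 0.34, SMG9 8.40 ± 0.57 and UPF1 5.70 ± 0.16 clusters per 10 kb (SD, n = 3), and no replicate of these 3 genes overlapped the SMG6 values of 1.97, 1.97 and 1.48. UPF3A had 2.06, 2.48 and 3.30 clusters per 10 kb, each above SMG6 in the same replicate. UPF2 was close to SMG6, with 1.14, 2.19 and 1.06, and did not differ from it beyond the spread. SMG1 had 0.411, 0.823 and 0.411, below SMG6 in every replicate, and UPF3B, with 1.05, 1.58 and 0.527, was below it too.

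Pooled over their 390586 nt, the 8 shorter members had 2.53, 3.07 and 2.51 clusters per 10 kb. SMG6 was lower by 0.567, 1.10 and 1.03 in replicates 1, 2 and 3. The mean difference was -0.902 clusters per 10 kb ± 0.29 (SD, n = 3), lower in 3 of 3 replicates (exact two-sided sign-flip permutation p = 0.25, the smallest possible with 3 replicates). Of 8 differences tested in this way, none can pass 0.05, and p = 0.25 becomes 0.333 after Benjamini-Hochberg adjustment, with the exact test behind each. In normalised reads per 10 kb of span, SMG6 had 12.5 ± 1.57 and the 8 others together 26.6 ± 5.52, a difference of -14.1 ± 5.15 in 3 of 3 replicates (SD, n = 3; exact sign-flip p = 0.25).

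The direction of this comparison rested on which shorter genes were used. SMG5, SMG9 and UPF1, grouped after their values were seen, make up 15.3% of the summed spans and held 48.1% of the member clusters. Together they had 7.43 clusters per 10 kb ± 0.18, against 1.15 ± 0.39 for the 5 remaining genes (SD, n = 3). Against the shorter genes of at least 50 kb, which are UPF2 and SMG1, SMG6 was higher by 0.796 clusters per 10 kb ± 0.37 in 3 of 3 replicates (SD, n = 3). The SMG1 values are uncertain because of its pseudogene copies, as described below. UPF2 by itself was above SMG6 in replicate 2, with 2.19 against 1.97 clusters per 10 kb. Without SMG5 and SMG9 the difference was 0.157 ± 0.36, within the spread (SD, n = 3). Without SMG1 it was -1.88 ± 0.31, and with the 8 genes weighted equally also -1.88 ± 0.35 (SD, n = 3). The difference in normalised reads per 10 kb moved likewise. It was 4.77 ± 4.08 against the genes of at least 50 kb, above 0 in 3 of 3 replicates, and -2.51 ± 4.30 without SMG5 and SMG9, within the spread (SD, n = 3). Without SMG1 it was -24.5 ± 6.84, and with equal weights -24.5 ± 6.53 (SD, n = 3).

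Among the 8152 protein-coding genes with a cluster in all 3 replicates, the median was 2.02 clusters per 10 kb. Longer genes had lower densities, with a Spearman's rho of -0.604 between span and clusters per 10 kb across these genes. The span enters both measures, and genes are not independent replicates. A gene entered only with a cluster in every replicate, which sets a lowest possible density that is higher for shorter genes. Between span and the number of clusters rho was 0.410 in the same genes. In clusters per 10 kb, SMG5 stood at percentile 94.1, SMG9 at 93.8, UPF1 at 85.4, UPF3A at 59.2, SMG6 at 46.0, UPF2 at 39.6, UPF3B at 29.8 and SMG1 at 16.3. For its length, however, SMG6 had many clusters. Of 318 other protein-coding genes with a span within 10% of its own, 83 had no cluster in any replicate, and 288, or 90.6%, had a lower mean number than its 44 clusters. Their median was 5.33 clusters. By the same comparison SMG5 exceeded 97.8% of 1086 genes, SMG9 97.5% of 1080, UPF1 93.5% of 1072, UPF3A 78.0% of 1052, UPF2 75.9% of 715, SMG8 70.4% of 587, UPF3B 61.7% of 976 and SMG1 56.1% of 715. Genes with no cluster carry much of these shares, 395 of the 976 for UPF3B, 208 of the 715 for SMG1 and 364 of the 587 for SMG8. Among like-span genes with a cluster in every replicate, 165 of 195 had fewer than SMG6, 532 of 556 fewer than SMG5, 490 of 517 fewer than SMG9 and 476 of 546 fewer than UPF1. For UPF2 it was 248 of 420 and for UPF3A 222 of 453, near the middle. SMG1, with 101 of 415, and UPF3B, with 35 of 397, were below it, and for SMG8 it was 0 of 121.

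**Figure D2:**
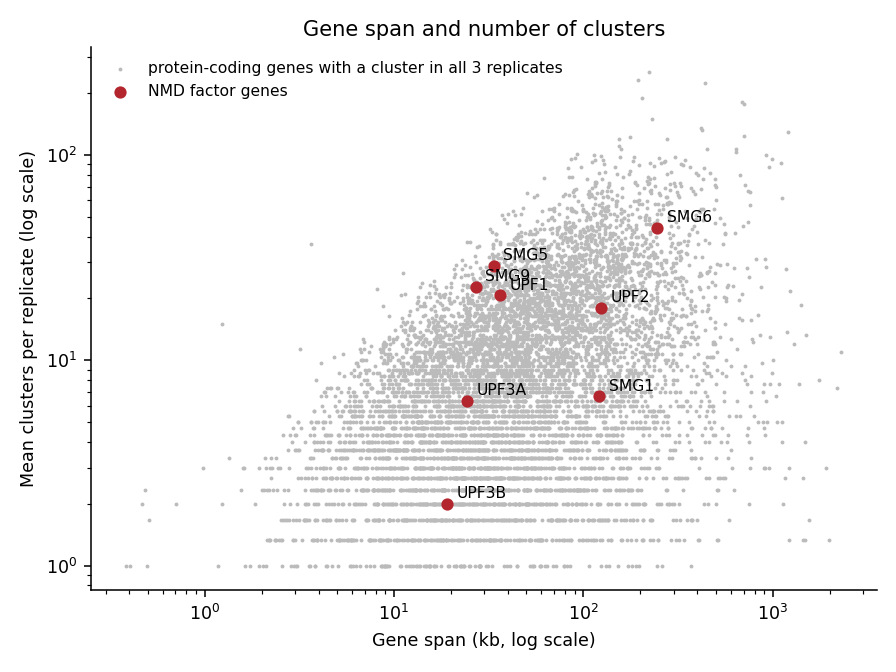
Mean clusters per replicate against gene span, both on log scales, for 8152 protein-coding genes with a cluster in all 3 replicates (grey) and the 8 NMD factor genes among them (red). SMG6 lies near the upper right, SMG5, SMG9 and UPF1 lie in the upper part for their spans, and SMG1 lies low for its span of 121549 nt.

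The 5 protein-coding genes most like SMG6 in span, mean clusters and mean normalised reads, by Euclidean distance on the log2 scale over these 3 measures, were TMEM131, ACBD6, MAP3K5, TLK1 and ZNF609. The distances ran from 0.08 for TMEM131 to 0.15 for ZNF609. TMEM131 had 51, 42 and 46 clusters in a span of 239616 nt.

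Within SMG6 the clusters were spread over its introns unevenly. Introns were numbered from the gene's start on the MANE Select transcript. Of 132 clusters, 97 (73.5%) lay in introns 8, 10, 12 and 13, and 6 of the 18 introns held none. Intron 13 is the longest, with 86756 nt or 35.6% of the span, and had 7, 9 and 8 clusters. That was 0.922 clusters per 10 kb ± 0.12 (SD, n = 3). Intron 12, with 13803 nt, had 6, 9 and 5 clusters, or 4.83 per 10 kb ± 1.51, and intron 6, with 8816 nt, had 3, 4 and 4, or 4.16 per 10 kb ± 0.65 (SD, n = 3). No replicate of intron 13 overlapped those of introns 12 and 6. Introns 8 and 10 were between them, with 2.11 ± 0.26 and 2.01 ± 0.73 clusters per 10 kb (SD, n = 3). They differed in recurrence. Of the 24 clusters in intron 8, 11 were found in another replicate, and of the 29 in intron 10, none were. The SMG6 cluster with most reads lay in the 3′ UTR in replicate 1, with 29 reads at 2060767 to 2060880. It lay in intron 8 in replicate 2, with 27 reads at 2275735 to 2275833, and in intron 8 in replicate 3, with 45 reads at 2279158 to 2279283. No single cluster held much of the gene, with 5.89%, 6.51% and 12.5% of its reads in these 3.

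**Figure D3:**
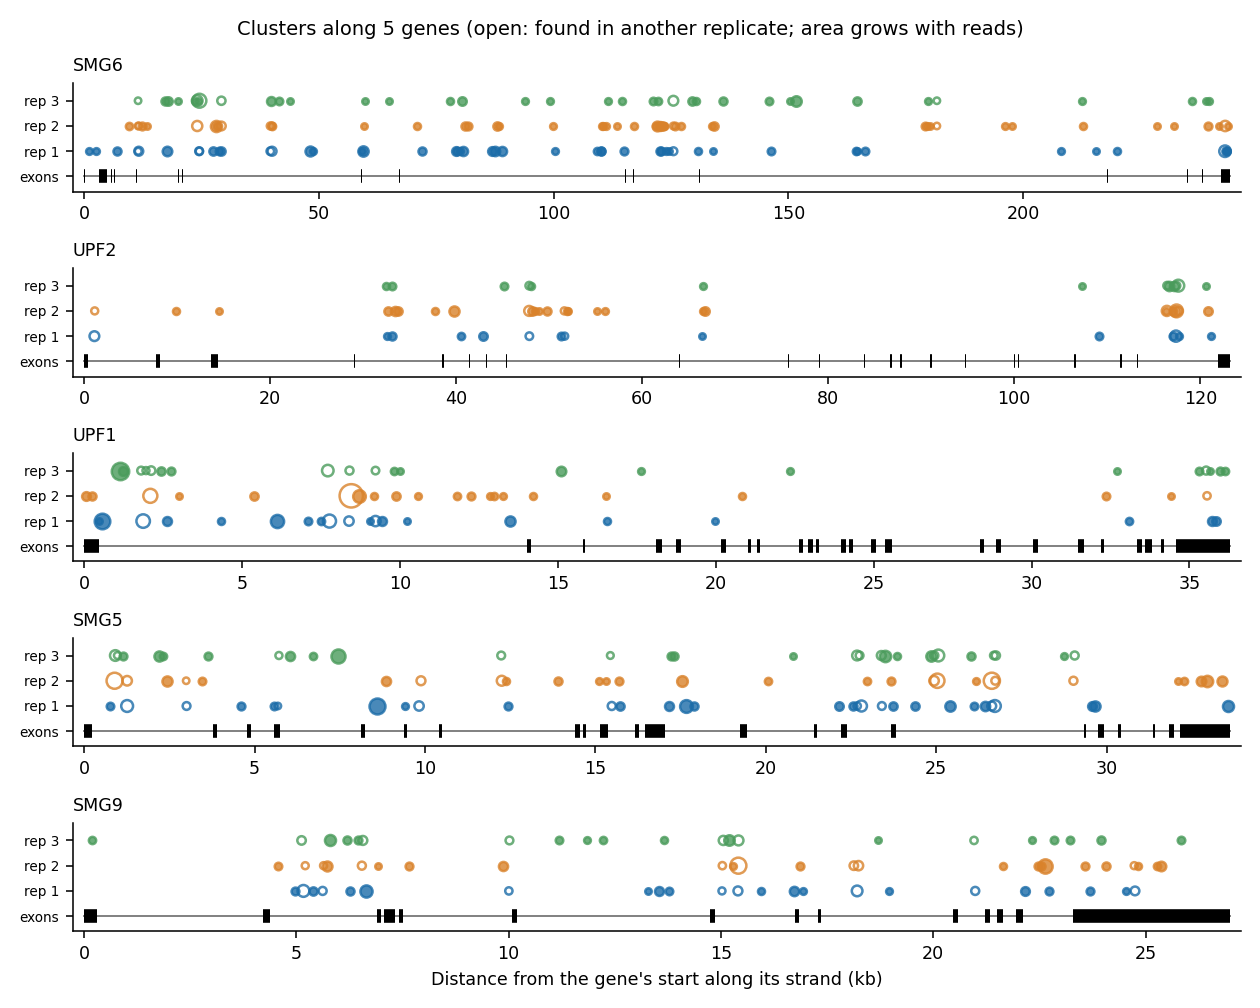
Clusters along SMG6, UPF2, UPF1, SMG5 and SMG9, with the distance from the gene's start in kb on the horizontal axis and 1 row per replicate. Black boxes are exons of the MANE Select transcript, with the outer exons drawn to the ends of the gene, symbol area grows with reads, and open symbols are clusters found in another replicate. UPF1 clusters crowd into intron 1, where 39 of its 62 lie, and SMG6 clusters thin out over intron 13.

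In UPF1, intron 1 held 14, 13 and 12 clusters, which made 62.9% of its clusters on 37.3% of its span. It also held 12 of the 14 UPF1 clusters found in another replicate and the cluster with most reads in each replicate. These had 58 reads at 18832485 to 18832567 in replicate 1, 138 reads at 18840234 to 18840607 in replicate 2 and 74 reads at 18833011 to 18833181 in replicate 3. Only that of replicate 2 was found elsewhere. In UPF2, intron 21, the last, held 4, 7 and 6 clusters, or 31.5% of the clusters on 6.95% of the span. The UPF2 cluster with most reads lay there in every replicate, with 27 reads at 11925757 to 11925831, 37 at 11925694 to 11925766 and 31 at 11925511 to 11925571. The first and second of these overlapped, and the third lay at lower coordinates without touching them. UPF2 intron 8 held 3, 10 and 2 clusters and so shared the high count of replicate 2. All 6 clusters of UPF3B lay in its intron 3, of 6198 nt, between 119848390 and 119850307. None overlapped another. UPF3A had 7 clusters in intron 3 and 6 in intron 7, with none found in another replicate.

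SMG5 clusters were spread over most of the gene. Intron 16, of 5496 nt, held 6, 6 and 9 clusters, and intron 15, of 1287 nt, held 4, 2 and 4, or 25.9 per 10 kb ± 8.97 (SD, n = 3). Its clusters with most reads lay apart, in intron 5 in replicate 1 with 61 reads, in intron 16 in replicate 2 with 63 reads and in intron 4 in replicate 3 with 46 reads. In SMG9, intron 2, of 2539 nt, held 6, 5 and 5 clusters, or 21.0 per 10 kb ± 2.27 (SD, n = 3), and intron 7, of 1889 nt, held 4, 3 and 3. Clusters in SMG6 introns lay a median of 5407 nt from the nearest exon of the transcript, against 560 nt in SMG5 and 501 nt in SMG9, whose introns are shorter. In SMG6, 10.5% of the clusters in introns of this transcript lay within 500 nt of an exon, where 6.59% of its intron sequence lies. SMG9, with 50% of clusters against 40.8% of sequence, and UPF3A, with 42.1% against 27.9%, went the same way. SMG5, with 44.7% against 51.8%, UPF1, with 21.6% against 44.9%, and UPF2, with 5.56% against 17.1%, went the other way. In SMG1 the shares were 40% and 39.8%, and UPF3B had none of its 6 clusters there.

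Most member clusters were intronic in the deposited annotation. Of 449, 385 were in introns, 44 in 3′ UTRs, 8 in coding sequence and 2 in 5′ UTRs, and 10 crossed a border or held the start codon. The intron share was 86.0% ± 2.83, against 83.5% ± 0.42 in the clusters of all other genes (SD, n = 3). The members' excess of 2.49 percentage points ± 2.83 was within the spread (exact sign-flip p = 0.5). It was 3.13 in replicate 1, -0.607 in replicate 2 and 4.93 in replicate 3. The share in 3′ UTRs was 9.67% ± 1.97, against 5.83% ± 0.41 elsewhere (SD, n = 3). The 3 replicates ran from 8.16% to 11.9% for the members and from 5.57% to 6.31% for other genes, without overlap. The members were not alike in this, and SMG9 and SMG1 held 15 and 10 of the 44 clusters. Pooled over replicates, the share was 50% in SMG1, 22.1% in SMG9 and 12.9% in UPF1. It was 5.81% in SMG5, 4.55% in SMG6 and 0% in UPF2, UPF3A, UPF3B and SMG8.

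The intron share of SMG6 clusters was 89.6%, 93.8% and 100% in replicates 1, 2 and 3, against 85.9%, 78.3% and 83.7%. The difference was 11.8 percentage points ± 7.03, above 0 in 3 of 3 replicates (SD, n = 3; exact sign-flip p = 0.25). Weighted by reads it was 6.95 ± 6.06 (SD, n = 3). Against the shorter genes of at least 50 kb it was 8.11 ± 13.7, and without SMG5 and SMG9 it was 8.56 ± 11.1, both within the spread and above 0 in 2 of 3 replicates (SD, n = 3). UPF2, UPF3A and UPF3B had intron clusters only. SMG1 differed, with 10 of its 20 clusters in the 3′ UTR, 1, 5 and 4 in replicates 1, 2 and 3. Its 3′ UTR of 4709 nt had 7.08 clusters per 10 kb ± 4.42, against 0.316 ± 0.20 per 10 kb of intron (SD, n = 3), and the 3′ UTR was higher in every replicate. Both values, and so the gap between them, are uncertain because of the pseudogene copies described below. SMG9 had 15 clusters of the 3′ UTR class, of which 4 lay in intron 13 of the MANE Select transcript. The 11 in the 3′ UTR of that transcript made 8.30, 16.6 and 5.54 clusters per 10 kb in replicates 1, 2 and 3, against 9.31, 7.45 and 8.38 per 10 kb of its introns. Its 3′ UTR was thus above the introns in replicate 2 alone. UPF1 had 8, SMG6 6 and SMG5 5. Per 10 kb of 3′ UTR these were 15.6 ± 12.2, 12.1 ± 12.1 and 12.2 ± 15.3 (SD, n = 3), against 5.49 ± 0.32, 1.74 ± 0.20 and 8.72 ± 0.72 per 10 kb of intron. Each gap was smaller than the SD of the 3′ UTR value. Within replicates, the UPF1 3′ UTR was above the introns each time, with 11.7, 5.84 and 29.2 against 5.49, 5.82 and 5.17. The gap was slight in replicate 2. The SMG5 3′ UTR was above the introns in replicate 2 alone. SMG6 had 4, 2 and 0, so its 3′ UTR value was not above its introns in replicate 3.

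**Figure D4:**
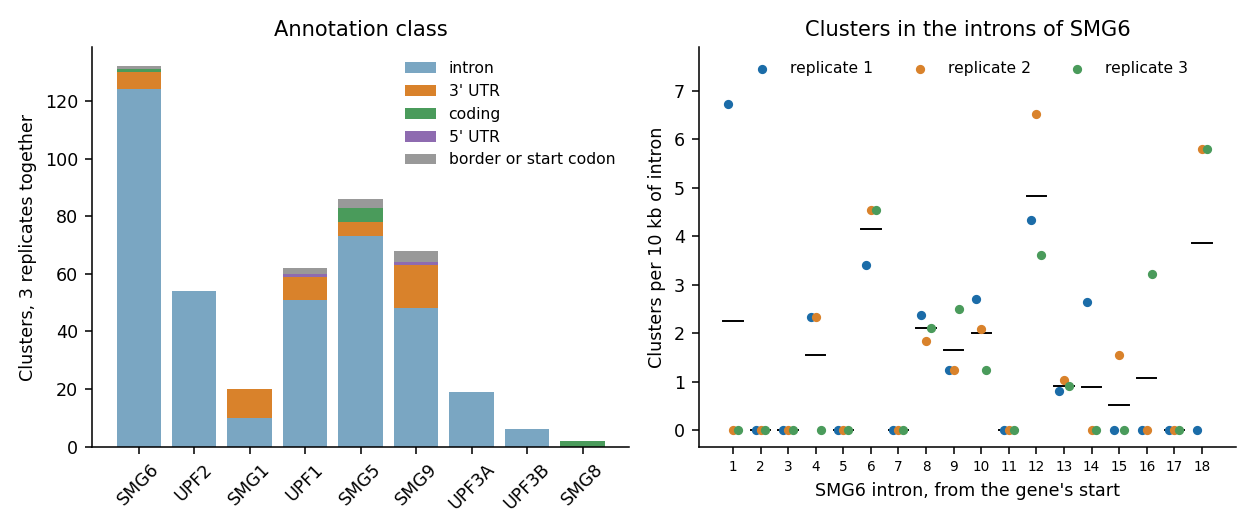
Left, clusters of the 3 replicates together by deposited annotation class for each gene, in numbers. Right, clusters per 10 kb in each intron of SMG6, with points for replicates and lines for means. Introns make up most of every gene except SMG1, with 10 of 20 clusters in the 3′ UTR, and SMG8, with 2 coding clusters, and SMG6 intron 12 stands above intron 13 in every replicate.

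A cluster was called recurrent, or found again, when it shared 1 nt or more with a cluster of another replicate on its strand. Of the 449 member clusters, 110 were found in at least 1 other replicate and 25 in both. Per replicate the share was 23.8%, 22.6% and 27.6%. Over the clusters of all other genes 21.7% were found again. The difference within replicates was 2.94 percentage points ± 1.93, above 0 in 3 of 3 replicates (SD, n = 3; exact sign-flip p = 0.25). With an overlap of 50% of both clusters it was 1.08 ± 1.84, within the spread (SD, n = 3). With at least 3 conversion locations per cluster it was 6.74 ± 4.04, and with at least the median read count 5.18 ± 7.93 (SD, n = 3). Clusters found in both others made up 5.44%, 5.36% and 5.97% of the members' clusters, against 2.48%, 2.58% and 2.54% for other genes. The members were not alike. Pooled over replicates, the share found in at least 1 other replicate was 38.4% in SMG5, 32.4% in SMG9, 25.9% in UPF2 and 22.6% in UPF1. It was below that of other genes in SMG1 with 20%, SMG6 with 17.4%, and UPF3A, UPF3B and SMG8 with 0%.

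A smaller share of SMG6 clusters was found again than of the shorter genes' clusters in each replicate. It was 16.7%, 18.8% and 16.7%, against 27.3%, 24.2% and 31.6% for the 8 others. The difference was -10.3 percentage points ± 4.78, below 0 in 3 of 3 replicates (SD, n = 3; exact sign-flip p = 0.25). It was -1.01 ± 3.52 when the shorter genes were weighted equally and -2.72 ± 5.20 without SMG5 and SMG9, both within the spread, and -4.34 ± 4.61 with an overlap of 50% of both clusters (SD, n = 3). It was -5.04 without replicate 1, -12.4 without replicate 2 and -3.59 without replicate 3, where a cluster can be found in 1 replicate only. The coverage of a gene by clusters and the share found again went together only in part, with SMG5 and SMG9 highest in both. Clusters covered 0.778% of the SMG6 span per replicate, 4.99% of SMG5, 4.59% of SMG9, 3.40% of UPF1, 0.679% of UPF2 and 0.228% of SMG1. The shares found again were 17.4% of 132 clusters in SMG6, 38.4% of 86 in SMG5, 32.4% of 68 in SMG9, 22.6% of 62 in UPF1, 25.9% of 54 in UPF2 and 4 of 20 clusters in SMG1. The part of chance overlap in these shares was not tested. UPF2, with a coverage near that of SMG6, had the higher share, in 14 of 54 clusters against 23 of 132. UPF1 had more coverage than UPF2 and a lower share. Of the UPF3A clusters, which covered 1.16% of its span, 0 of 19 were found again, and of the UPF3B clusters 0 of 6. Merged into sites, 91.6% of the 119 sites of SMG6 were seen in 1 replicate, and 86.1% of the 267 sites of the shorter genes.

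**Figure D5:**
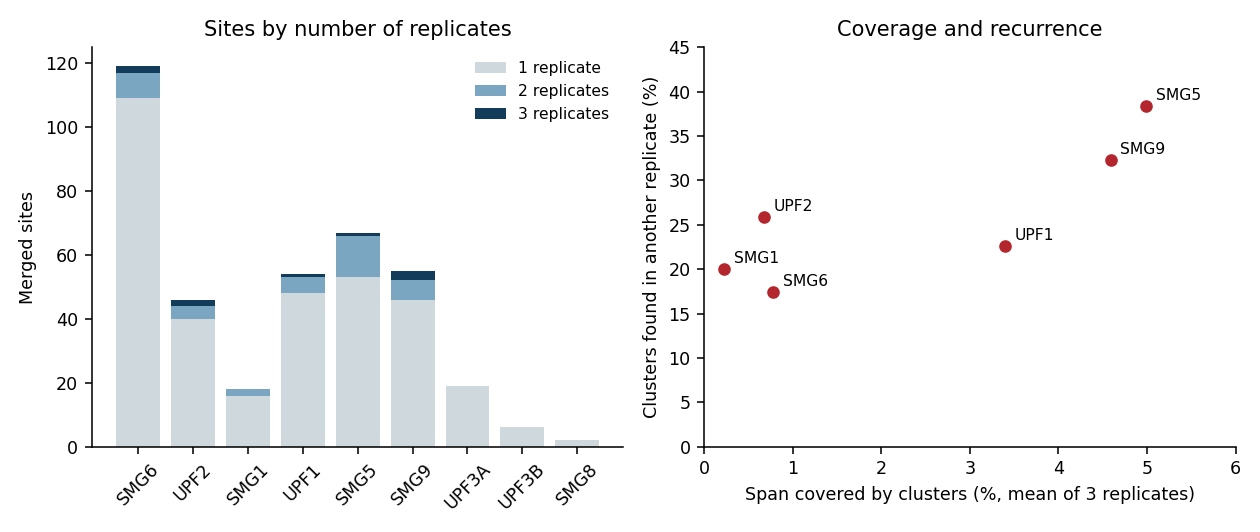
Left, merged sites of each gene by the number of replicates with a cluster there. Right, the percent of clusters found in another replicate against the percent of the gene's span covered by clusters, for the 6 genes with at least 20 clusters in all. SMG5 and SMG9 are high on both axes, and UPF2 and SMG6 have low coverage with 25.9% and 17.4% found again, as does SMG1 with 4 of 20 clusters. UPF1, with 3.40% of its span covered, has 22.6% found again, below UPF2.

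Some sites seen in 2 replicates were deeper than several of those in all 3. In SMG5 the site at chr1:156281830-156282029 in intron 1 had 62 reads in replicate 2 and 30 in replicate 3, and that at chr1:156257723-156257865 in intron 16 had 48 and 31 in the same replicates. In UPF1 the site at chr19:18839640-18839798 in intron 1 had 39 reads in replicate 1 and 29 in replicate 3. In SMG6 the site at chr17:2279158-2279297 in intron 8 had 18 reads in replicate 1 and 45 in replicate 3, and a 3′ UTR site at chr17:2060724-2060880 had 29 in replicate 1 and 22 in replicate 2. The SMG1 sites in 2 replicates were both in its 3′ UTR, at chr16:18806322-18806371 with 14 and 12 reads and at chr16:18806703-18806788 with 10 and 12 reads.

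The T-to-C change was used as the sign of a crosslink. Of the reads in SMG6 clusters 93.5%, 90.6% and 88.6% had one in replicates 1, 2 and 3, against 84.99%, 82.3% and 86.7% in the shorter members. SMG6 was higher by 6.23 percentage points ± 3.74 in 3 of 3 replicates (SD, n = 3; exact sign-flip p = 0.25). Its clusters were shallower, with a median of 9, 7 and 7 reads against 10 in each replicate for the shorter members. Restricted to clusters at or above the median depth in reads, the difference was 3.99 ± 4.52, within the spread (SD, n = 3). Over the 9 genes together 86.1% ± 1.85 of reads had the change, and over all other genes 86.1% ± 0.63 (SD, n = 3). UPF1, with the deepest cluster, had the lowest share among genes with at least 3 clusters, at 79.7%, and UPF3B the highest at 91.8%.

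Member clusters were alike in length to those of other genes, with a median of 40.3 nt ± 3.51 against 38.7 nt ± 1.53 (SD, n = 3), and those of SMG6 were 35.8 nt ± 0.76. T made up between 28.8% and 31.3% of the bases in member clusters and between 30.3% and 31.8% in others. C made up 28.1% ± 0.31 and 25.9% ± 0.057 (SD, n = 3). The C values did not overlap between the sets. ATCTT was present in 41 of the 449 member clusters. Per replicate the share was 9.01% ± 1.99, against 9.34% ± 0.39 in other genes (SD, n = 3). Members minus others, this came to -0.329 percentage points ± 1.92, within the spread (exact sign-flip p = 1). The replicates gave 0.424, 1.10 and -2.51, and the sign changed without replicate 3, to 0.763. SMG5 had 11 such clusters, SMG6 10, UPF2 and SMG9 6 each and UPF1 only 2 of 62.

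Other genes of the pathway were taken from a list of 27, which held further decay factors, the exon junction complex, release factors, cap-binding, decapping and exonuclease genes. Clusters were present in every replicate for 24 of these (88.9%, against 40.7% of all protein-coding genes), in 2 replicates for 1 gene, in 1 replicate for another, and 1 gene had none. The median density of the 24 was 3.09 clusters per 10 kb, where all 8152 genes with clusters in every replicate had 2.02. Lengths were not matched in these comparisons, and density fell with span over the 8152 genes (Spearman's rho -0.604). The higher median is therefore not shown to be a trait of the pathway. RNPS1, a peripheral component of the exon junction complex, had 12, 15 and 18 clusters in 15282 nt, or 9.82 per 10 kb ± 1.96 (SD, n = 3). NBAS, which acts in NMD and in vesicle transport, is longer than SMG6 with 394425 nt and had 56, 44 and 46 clusters, or 1.23 per 10 kb ± 0.16 (SD, n = 3). The core exon junction genes EIF4A3, MAGOH and RBM8A had means of 2.67, 3.33 and 1.33 clusters. Per 10 kb these were 2.09 ± 1.63, 2.87 ± 1.31 and 2.18 ± 0.94 (SD, n = 3). CASC3, a further exon junction gene, had 9, 9 and 15 clusters, or 3.45 per 10 kb ± 1.09 (SD, n = 3). The decapping gene DCP1B had 1 cluster in all, in replicate 2, and the release factor paralogue GSPT2, of 2791 nt and without a cluster, was not detectable at these limits.

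SMG1 has pseudogene copies on chromosome 16, and clusters were also listed under their names. The copies had 31, 24 and 24 clusters with 412, 449 and 289 reads, more than the 40, 90 and 52 reads of SMG1 itself. SMG1P3 held 66 of these 79 clusters. Every SMG1 cluster sequence had a single exact place, but how reads that match the gene and a copy almost equally were assigned is not given in the sources used here. The SMG1 values are therefore uncertain.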

How the data were processed

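PAR-CLIP libraries of 3 biological replicates were analysed from the deposited cluster tables, 1 per replicate. Per the file headers, the authors' tables give counts of reads, distinct reads and conversion locations per cluster, not normalised. They also give the fraction of reads with T-to-C. The deposited log10 conversion specificity and mode score were not used. The build is hg38 per the submitters' processing notes. The aligner, cluster caller and annotation release are not given in the sources used here. RNA-seq, also named in the series' design, was not used here.

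Clusters were assigned by their deposited gene name. Spans, exons and MANE Select transcripts came from GENCODE release 44. Of 13557 gene names, 11164 matched a protein-coding gene, 543 of them through an older symbol in RefSeq. Python 3.11.15 with pandas 2.3.3 and numpy 2.4.6 was used. Overlap needed 1 nt on the same strand. Differences were taken within replicates and tested with exact sign-flip permutation tests over 3 replicates. The overlap, merging and test functions were tested on simulated data. Alternatives covered cluster depth, overlap, choice of shorter genes, weighting, assignment by coordinates and leaving out replicates. Leaving out SMG5 and SMG9, and intron clusters alone, were chosen after seeing the data.

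All 9 genes are named. Other genes named came from the pathway list and from the rule for genes like SMG6, which takes the 5 nearest. Sites named were each gene's cluster with most reads and the sites in all 3 replicates; sites in 2 replicates were chosen after their values were seen. A gene of the pathway list is counted but not reported here by name. The members and lists were chosen with earlier results of these data known.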

Additional observations from a re-analysis of the deposited data

Results flagged for a closer look

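Clusters on the strand opposite the 9 genes, inside their spans, held 28 reads in 4 clusters, all inside SMG5 and without a gene name, with 2 in replicate 2 and 2 in replicate 3. They enter no comparison. Clusters named for the SMG1 pseudogene copies held 1150 reads in 79 clusters and enter none either, as they carry other gene names. Both sums exceed 3 reads, the upper limit for a count of 0, as any listed cluster does, and there is no control library to set them against. With 3 replicates, no test for a replicate standing apart from the others was made.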

How the results depend on the processing

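No paired analysis was possible because the samples form 1 group, so that replicate numbers pair no samples across groups. Differences between genes were taken within each replicate, and the sign-flip tests use them so. Over 11 results, 108 values were recomputed, of which 97 kept their direction or stayed within 1.5 times a count, 5 counts moved by more and 6 differences changed sign. Differences moved by over 1.5 times in 29 of these values. None of the sign-flip tests can pass 0.05 with 3 replicates, so keeping a side of the threshold says nothing about stability. The difference in clusters per 10 kb between SMG6 and the shorter genes was 0.796 against genes of at least 50 kb and 0.157 without SMG5 and SMG9. In normalised reads per 10 kb it was 4.77 against genes of at least 50 kb. The difference in ATCTT was 1.24 percentage points with at least the median read count and 0.726 with at least 3 distinct reads, and ran from -1.04 to 0.763 without single replicates. Sites in every replicate numbered 5 with at least the median read count, 2 with an overlap of 50% of both clusters, and 19 to 23 without single replicates, where 2 replicates are enough. The cause of the sign changes was not tested. With a median of 3 distinct reads per cluster, a site missing from a replicate may have been present there below the limits of the tables.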
